A study of Rattus norvegicus with 12 samples.

Results

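Kinases and scaffolds of the mitogen-activated protein (MAP) kinase cascades were examined in epididymal adipocytes of male Fisher 344 rats. All array probes whose gene name begins with Mapk, Map2k, Map3k or Map4k and a number, or with Mapka, were taken. They were 55 probes of 48 genes, among 30367 probes on the array, and the names also brought in scaffolds (the Mapk8ip genes), binding partners (Map3k7ip1, Map3k7ip2, Map2k1ip1), the p38 substrate kinases (the Mapkapk genes) and Mapkap1, Mapk1ip1 and Mapk1ip1l, which carry the name of a MAP kinase but belong to no kinase tier. In current nomenclature Map2k1ip1 is Lamtor3, Map3k7ip1 is Tab1 and Map3k7ip2 is Tab2. Tiers and branches were assigned from textbook knowledge.

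MAP kinase cascades are relays of protein kinases in which a MAP4K can act upstream of a MAP3K, and the MAP3K activates a MAP2K. The MAP2K phosphorylates a MAP kinase, and the MAP kinase acts on substrate kinases and transcription factors. The ERK branch carries growth factor and insulin signals, while the JNK and p38 branches respond mainly to cytokines and cellular stress, and scaffold proteins hold the kinases of a branch together. In adipocytes ERK signaling is known to act on lipolysis and differentiation, JNK is known for its part in obesity-related insulin resistance, and p38 is known for its role in the response to catecholamines. The arrays measured transcripts, and the activity of these kinases is set by phosphorylation, which was not measured on them.

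The CUS group were 6 rats exposed to chronic unpredictable stress (CUS), a random order of 2 stressors per day for 35 days that included swimming, rotation, isolation and overnight loss of food and water. The control group were 6 rats that were handled during weighing. The RNA of each rat was hybridised to 1 single-color (Cy3) array, and the labels give no age and no shared treatment beyond handling. The labels call the cells epididymal adipocytes in one field and preadipocytes in another. Adipocyte genes were well above background in both groups, and so were the preadipocyte and fibroblast markers Pdgfra, Col1a1, Col1a2, Dcn and Ly6c. The free-text description of the control samples names the stress as well, whereas their titles, source names and treatment fields call them untreated controls, and these set the groups. One slide carried the 6 CUS arrays and a second slide the 6 control arrays, and slide and stress therefore cannot be told apart in any result. The CUS arrays were also brighter, with a 75th percentile of intensity of 541 to 627 units on CUS arrays and 230 to 400 units on control arrays. Every value is therefore a log2 signal relative to the 75th percentile of its own array, and every difference is CUS minus control on that scale. When the arrays were scaled on the spike-in RNAs instead, the median difference of all tested probes shifted by 0.83, and 35 MAP kinase probes then passed as higher in CUS and 0 as lower (limma, 0 also at an unadjusted p under 0.05). Of all 19727 tested probes, 12645 passed as higher after that scaling and 477 as lower. With no scaling 36 passed as higher and 0 as lower, also 0 at an unadjusted p under 0.05, so that every "lower" here means lower than the bulk of the transcripts on the same array.

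With arrays scaled on the 75th percentile, both directions were found within the cascades. Of the 55 probes, 45 probes of 41 genes were tested, having passed the scanner software's call of a signal well above background on 6 arrays or more, and 41 of the 45 had passed it on all 12. In CUS adipocytes 14 of the 45 passed as higher (31.1%, against 24.7% of all 19727 tested probes) and 11 as lower (24.4%, against 25.4%), at an adjusted p under 0.05 (limma, Benjamini-Hochberg over all tested probes). Thus 55.6% of the MAP kinase probes differed, against 50.1% of all probes, and these shares are near the background. The values of the 6 CUS and the 6 control arrays did not overlap for 9 probes (20%, against 21.8% of all probes). A change of at least 2-fold that also passed the test was found for 3 probes, Map3k4, Mapk11 and Map3k12 (6.67%, against 11.9%). The median difference of the 45 probes was 0.10, against -0.02 over all tested probes. Another background correction, the normexp method with an offset of 50 units added to each signal, moved this split to 12 MAP kinase probes higher and 20 lower. The offset weighs more on the dimmer control arrays, so that by construction it moves dim probes toward lower in CUS. How much of each normexp result it makes was not tested. The split of all 19727 tested probes moved too, to 4438 higher and 8870 lower.

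**Figure D1:**
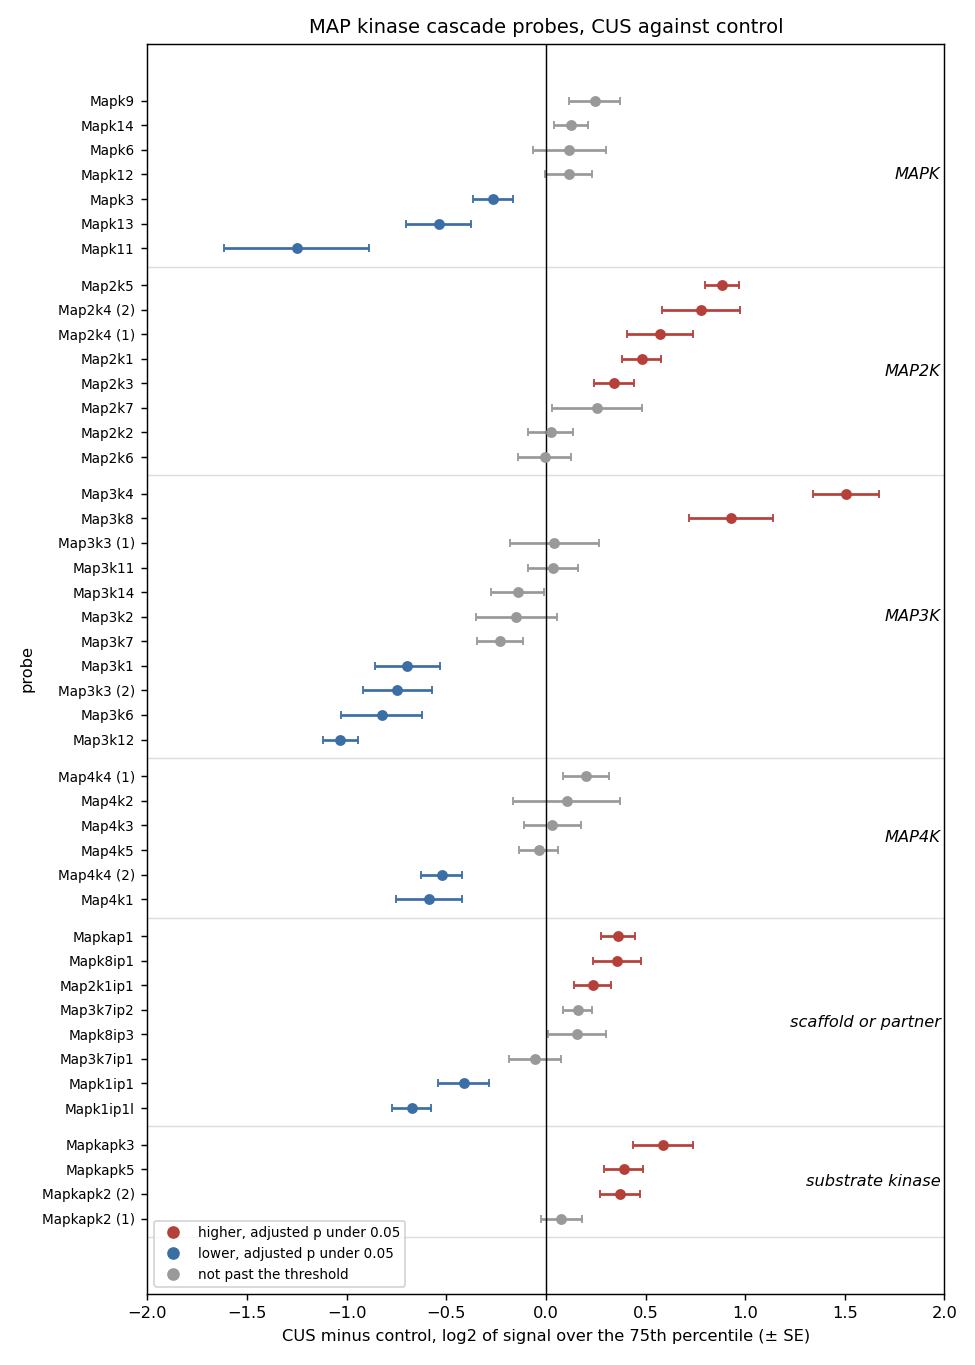
Difference between CUS and control for each of 44 tested probes, by tier, on the horizontal axis in log2 units relative to the 75th percentile of the array, with the standard error from the limma fit. Red points passed as higher and blue points as lower; a number in brackets separates probes of one gene, and after scaling on the spike-ins 42 of the 44 points lie above 0.

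The MAP2K tier held 5 higher probes and no lower one among 8, with a median difference of 0.41. The substrate kinases held 3 higher probes and no lower one among 4, with a median of 0.38. The MAP3K tier was split, with 2 higher and 4 lower probes among 11 and a median of -0.15. The MAP4K tier held 2 lower probes among 6 with a median of 0.00, the MAP kinases 3 lower among 8 with a median of 0.12, and the scaffolds and partners 3 higher and 2 lower among 8 with a median of 0.16. After normexp the MAP2K tier had 3 higher and 2 lower probes, while the MAP3K tier had 2 higher and 9 lower ones, and after spike-in scaling all 8 MAP2K probes passed as higher. By branch, 4 of 10 p38 probes were higher and 2 lower, and of 15 JNK probes 3 (of 2 genes) were higher and 4 lower. After normexp these counts were 4 and 3 for p38 and 2 and 9 for JNK, and after spike-in scaling 8 and 0 for p38 and 11 and 0 for JNK. The MAP2K probes of the ERK, JNK, p38 and ERK5 branches each included at least 1 that was higher. The difference between tiers or branches was not tested.

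The probes on which the results turn are 60-base oligonucleotides of transcript sense, and 9 that hold a reading frame without a stop codon are given here from 5′ to 3′. They are the 3 probes with a called change of at least 2-fold (Map3k4, Mapk11 and Map3k12), the Map2k5 probe, and probes of genes that several probes read, while others with large differences, such as those of Map3k8 and Map3k6, are not shown. Capitals mark a stop codon at the 3′ end of the Mapk11 probe, in a frame otherwise free of them. Positions come from the array files and refer to rat build rn4, with no word on exon or UTR, so that which frame is translated is not known from them.
Mapk11 (chr7:127444268-127444327, minus strand): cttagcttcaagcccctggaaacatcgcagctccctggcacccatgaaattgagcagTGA
Map2k4, probe 1 (chr10:52014623-52014682, minus strand): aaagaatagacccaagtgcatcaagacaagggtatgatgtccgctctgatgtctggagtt
Map2k4, probe 2 (chr10:52041787-52041846, minus strand): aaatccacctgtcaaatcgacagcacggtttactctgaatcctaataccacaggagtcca
Map2k5 (chr8:67448494-67448644, minus strand): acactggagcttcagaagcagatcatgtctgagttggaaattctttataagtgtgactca
Map3k3, probe 1 (chr10:95548560-95548619, plus strand): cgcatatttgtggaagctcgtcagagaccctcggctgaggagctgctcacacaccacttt
Map3k4 (chr1:42968598-42969684, plus strand): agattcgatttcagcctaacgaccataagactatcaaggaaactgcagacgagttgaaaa
Map3k12 (chr7:141255682-141255741, minus strand): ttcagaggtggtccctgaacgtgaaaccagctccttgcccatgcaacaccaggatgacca
Map4k4, probe 1 (chr9:39206373-39206432, plus strand): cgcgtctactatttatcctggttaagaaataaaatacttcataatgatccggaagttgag
Mapkapk2, probe 2 (chr13:43996389-43996448, minus strand): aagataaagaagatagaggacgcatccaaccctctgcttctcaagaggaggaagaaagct
The Map2k5 and Map3k4 probes cover 151 and 1087 bases of the genome with their 60 bases and thus cross an intron.

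The ERK kinases are the terminal kinases of the Ras and Raf cascade. Mapk3 (chr1:185941185-185941244), which encodes ERK1, lay between 7.05 and 7.29 on CUS arrays (median 7.22) and between 7.19 and 7.81 on control arrays (median 7.43). It was lower in CUS by the smallest margin of all lower probes, -0.27 ± 0.10 (adjusted p = 0.0414), and leaving out any of 10 arrays ended the call (adjusted p up to 0.0898). After normexp the call was also lost, with Mapk3 at -0.18 (adjusted p = 0.063).

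The p38 kinases are encoded by 4 genes that lie as neighbors on 2 chromosomes. By the tested probes of the rule, Mapk11 and Mapk13 were lower while Mapk12 and Mapk14 did not pass. A Mapk12 probe outside the rule, given below, was lower too. Mapk11, which encodes p38β, lay between -3.10 and -2.60 on CUS arrays (median -3.05) and between -3.03 and -0.60 on control arrays (median -1.52). Its difference of -1.25 ± 0.36 was 2.38-fold (adjusted p = 0.0131). The CUS values were tight, whereas the controls spread widely and 1 of them lay within the CUS range. A further Mapk11 probe 171 bases away (chr7:127444097-127444156) was well above background on 4 CUS arrays and no control array. Its CUS mean was at least 1.28-fold higher, the opposite direction. That difference was not tested, and the groups overlapped (-5.59 to -4.86 on CUS arrays, -6.87 to -5.11 on control arrays). The probes of this gene thus do not give a single answer. Mapk12, which encodes p38γ and whose probe starts 13.2 kb from that of Mapk11, was at -0.57 to 0.19 on CUS arrays and -0.39 to -0.13 on control arrays and did not pass (0.11 ± 0.12, adjusted p = 0.43).

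On the other chromosome, Mapk13 (p38δ, chr20:7064096-7064155) lay between -1.88 and -1.68 on CUS arrays (median -1.75) and between -1.72 and -0.57 on control arrays (median -1.32). It fell by 0.54 ± 0.16 (adjusted p = 0.0163), and the lowest control array lay within the CUS range. Its neighbor Mapk14, which encodes p38α, the form known as the main p38 kinase of most tissues, starts 63.8 kb away. Mapk14 was at 4.27 to 4.62 on CUS arrays and 4.16 to 4.44 on control arrays (0.13 ± 0.08, adjusted p = 0.227). It passed as higher after normexp (0.20, adjusted p = 0.0316) and with array weights (0.19, adjusted p = 0.0263). Mapk14 did not pass in the deposited table (0.03, adjusted p = 0.731), after quantile normalization (0.03, adjusted p = 0.715) or with the replicate number as a block (0.13, adjusted p = 0.261). Spike-in scaling, which raised every difference by 0.83, put it at 0.96 (adjusted p = 0.0011).

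The ratio of a pair of probes within an array does not change when an array is scaled by a single constant, although quantile normalization and the background correction can change it, and this comparison was added after the data were seen. Only the change of such a ratio between the groups is read, since probes differ in brightness for other reasons. The log2 ratio of Mapk13 to Mapk14 was -6.49 to -6.01 on CUS arrays and -6.06 to -5.01 on control arrays, 0.66 lower in CUS (two-sided exact permutation test, p = 0.0043, where 6 against 6 arrays allow 0.0022 at the smallest; 0.0144 after adjustment over 10 pairs of related kinases). The ratio of Mapk11 to Mapk14 was 1.38 lower (-7.70 to -6.87 on CUS arrays, -7.37 to -4.96 on control arrays, exact permutation p = 0.013, adjusted 0.0303). Both kept their size after normexp, at -0.69 and -1.19, but the adjusted p was 0.0519 and 0.0649 in the deposited table. Leaving out 1 array ended the call of the Mapk11 to Mapk14 ratio in 8 of 12 cases (adjusted p up to 0.0606), while that of Mapk13 to Mapk14 held in all 12 (adjusted p up to 0.0289). The ratio of Mapk12 to Mapk14 moved by -0.01 (exact permutation p = 0.892). Scaling on the spike-ins left Mapk11 at -0.42 (adjusted p = 0.282) and turned Mapk13 to 0.29 (adjusted p = 0.250).

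**Figure D2:**
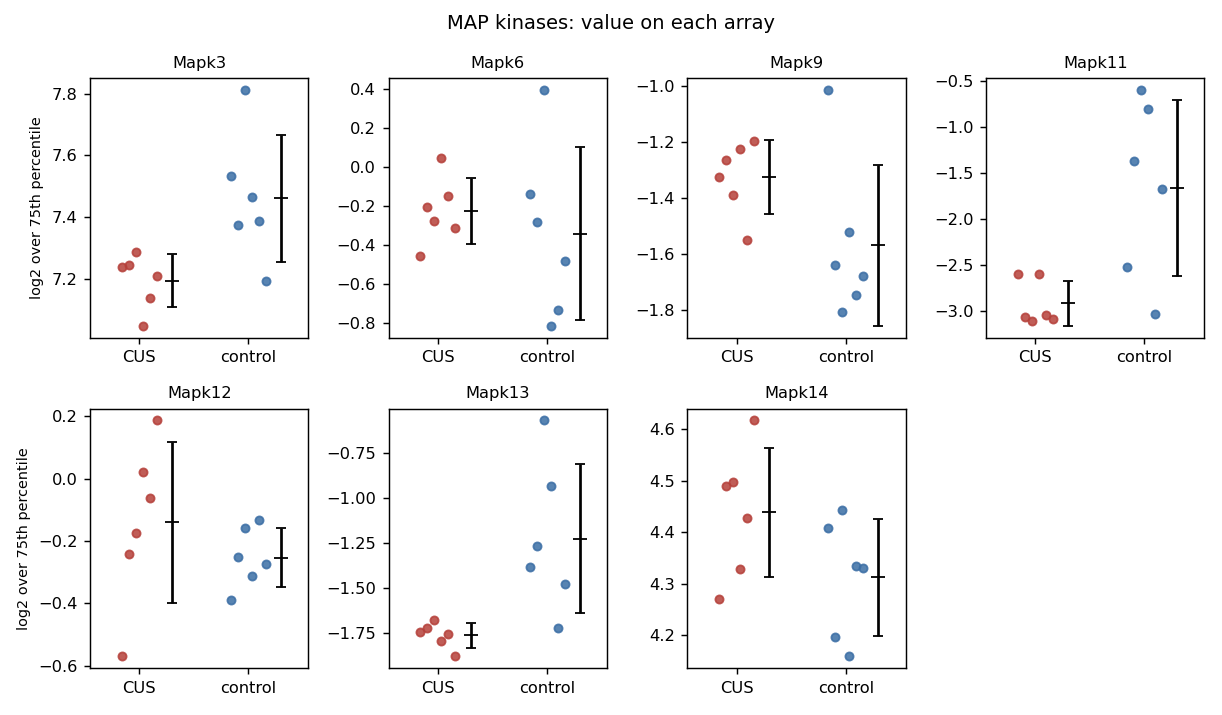
Value on each array of 7 MAP kinases, in log2 units relative to the 75th percentile of the array; each point is 1 rat, and the black mark is the mean with its SD. Mapk3, Mapk11 and Mapk13 are lower in CUS, with overlap between the groups for each of them, and after spike-in scaling Mapk3 and Mapk13 change sign.

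Mapk9 and Mapk6 did not pass the test, and Mapk10, Mapk15 and Mapk4 were too dim to be tested. No probe taken by the rule bears the name of Mapk7, the gene of ERK5. Mapk9, which encodes JNK2, was at -1.55 to -1.20 on CUS arrays and -1.81 to -1.02 on control arrays (0.24 ± 0.13, adjusted p = 0.13). Control rat 1 was the highest of all 12, and without it the difference was 0.35 (adjusted p = 0.0075). Mapk6, which encodes the atypical kinase ERK3, differed by 0.12 ± 0.18 (adjusted p = 0.611), with CUS values lying inside the control range. The probes of Mapk10 (JNK3, known mainly from brain), Mapk15 and Mapk4 were well above background on at most 1 array, so that no level is given for them.

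The MAP2K kinases sit between the upstream kinases and the MAP kinases, and each activates a narrow set of MAP kinases. Map2k1 (MEK1, an activator of the ERK kinases; chr8:68379787-68379846) lay between 0.81 and 1.02 on CUS arrays (median 0.88) and between 0.07 and 0.67 on control arrays (median 0.41). Every CUS value was above every control value, with a difference of 0.48 ± 0.10 (adjusted p = 0.00173). Map2k2, which encodes the closely related MEK2, differed by 0.02 ± 0.11 (adjusted p = 0.868). The ratio of Map2k1 to Map2k2 within arrays was 0.46 higher in CUS with no overlap, at -3.68 to -3.37 on CUS arrays and -4.53 to -3.69 on control arrays (exact permutation p = 0.0022, adjusted 0.0108). It stayed higher after normexp (0.34, adjusted p = 0.0337) and in the deposited table (0.55, adjusted p = 0.0108).

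Map2k5, which encodes MEK5, the activator of ERK5, had the smallest p in this tier. It lay between -3.03 and -2.70 on CUS arrays (median -2.82) and between -3.86 and -3.56 on control arrays (median -3.73), a difference of 0.88 ± 0.09 (1.85-fold, adjusted p = 1.18e-05). The groups lay apart by more than the range of either one. After normexp the call was lost (0.03, adjusted p = 0.732), but the added offset bears on a probe as dim as this one. In the deposited table the call was kept (1.16, adjusted p = 7.29e-06), as it was after quantile normalization (1.16, adjusted p = 6.83e-06).

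Map2k4 (MKK4, an activator of JNK) was read by probes 27.2 kb apart, and both were higher in CUS. Probe 2 lay between -2.12 and -1.67 on CUS arrays and between -3.60 and -2.24 on control arrays with no overlap (0.78 ± 0.20, adjusted p = 0.00622). Probe 1 lay between -2.31 and -1.71 on CUS arrays and between -2.95 and -1.94 on control arrays, where 1 control array was within the CUS range (0.57 ± 0.17, adjusted p = 0.0129). After normexp the differences were 0.24 (adjusted p = 0.0445) and 0.13 (adjusted p = 0.344). The other JNK activator, Map2k7 (MKK7), differed by 0.26 ± 0.23 and did not pass (adjusted p = 0.36), and after normexp its difference was -0.28 (adjusted p = 0.026).

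Of the p38 activators, Map2k3 (MKK3; chr10:47096527-47096586) was higher, at 3.53 to 3.84 on CUS arrays (median 3.70) and 3.14 to 3.58 on control arrays (median 3.33). The difference was 0.34 ± 0.10 (adjusted p = 0.0146), and in the deposited table it was 0.21 (adjusted p = 0.0523). Map2k6, which encodes MKK6, did not differ beyond its error (-0.01 ± 0.13, adjusted p = 0.967), although after normexp it was -0.37 (adjusted p = 0.0014). The ratio of Map2k3 to Map2k6 did not pass (0.35, exact permutation p = 0.106, adjusted 0.133), but it passed after normexp (0.79, adjusted p = 0.0108) and without CUS rat 4 (0.47, adjusted p = 0.0487).

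The MAP3K kinases receive signals from receptors and small GTPases. Map3k4 (MEKK4, which GADD45 proteins activate) showed the largest difference of the 45 probes, a 2.84-fold rise. It lay between -2.26 and -1.58 on CUS arrays (median -1.86) and between -3.80 and -2.85 on control arrays (median -3.34), with no overlap (1.50 ± 0.17, adjusted p = 3.16e-05). After normexp the difference was 0.53 (adjusted p = 5.4e-04). Map3k8 (TPL2, which leads from Toll-like and tumor necrosis factor receptors to ERK; chr17:61930387-61930446) lay between 0.88 and 1.60 on CUS arrays (median 1.40) and between -0.16 and 1.17 on control arrays (median 0.37). It rose by 0.93 ± 0.21 (1.90-fold, adjusted p = 0.00343), with 1 control array within the CUS range.

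The lower MAP3K genes were Map3k12, Map3k6, Map3k1 and, by 1 of its probes, Map3k3. Map3k12, which encodes DLK, an upstream kinase of JNK, lay between -2.47 and -2.16 on CUS arrays (median -2.39) and between -1.56 and -1.19 on control arrays (median -1.30). It fell 2.04-fold with no overlap (-1.03 ± 0.09, adjusted p = 4.45e-06), was still lower after normexp (-0.85), and with Mapk11 was one of only 2 probes below 0 after spike-in scaling (-0.20, adjusted p = 0.450). Map3k6 (ASK2, a partner of the stress kinase ASK1; chr5:151873640-151873699) was at 1.90 to 2.26 on CUS arrays and 2.51 to 3.87 on control arrays, again with no overlap (-0.82 ± 0.21, adjusted p = 0.00562). Map3k1 (MEKK1, upstream of JNK; chr2:43062253-43062312) was at -0.81 to -0.28 on CUS arrays and -0.30 to 0.59 on control arrays (-0.70 ± 0.16, adjusted p = 0.0041), where 2 control arrays lay just below the highest CUS array. After spike-in scaling Map3k6 was at 0.00 and Map3k1 at 0.13, and neither passed.

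Of the 11 MAP3K probes, 5 did not pass with 75th percentile scaling. Map3k7, which encodes TAK1, the kinase that links interleukin-1 and tumor necrosis factor receptors to JNK and p38, was at -1.36 to -1.11 on CUS arrays and -1.24 to -0.64 on control arrays (-0.23 ± 0.11, adjusted p = 0.107). Map3k2, Map3k11, Map3k14 and probe 1 of Map3k3 differed by -0.15, 0.03, -0.14 and 0.04. All 4 were lower after normexp, by 0.47, 0.49, 0.46 and 0.45 on the log2 scale, as was Map3k7 (-0.27, adjusted p = 0.0195), whereas Map3k11 was higher in the deposited table (0.49, adjusted p = 0.0138). Map3k9, Map3k10 and Map3k13 were well above background on at most 2 of 12 arrays and were not tested, and no difference is given for them.

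**Figure D3:**
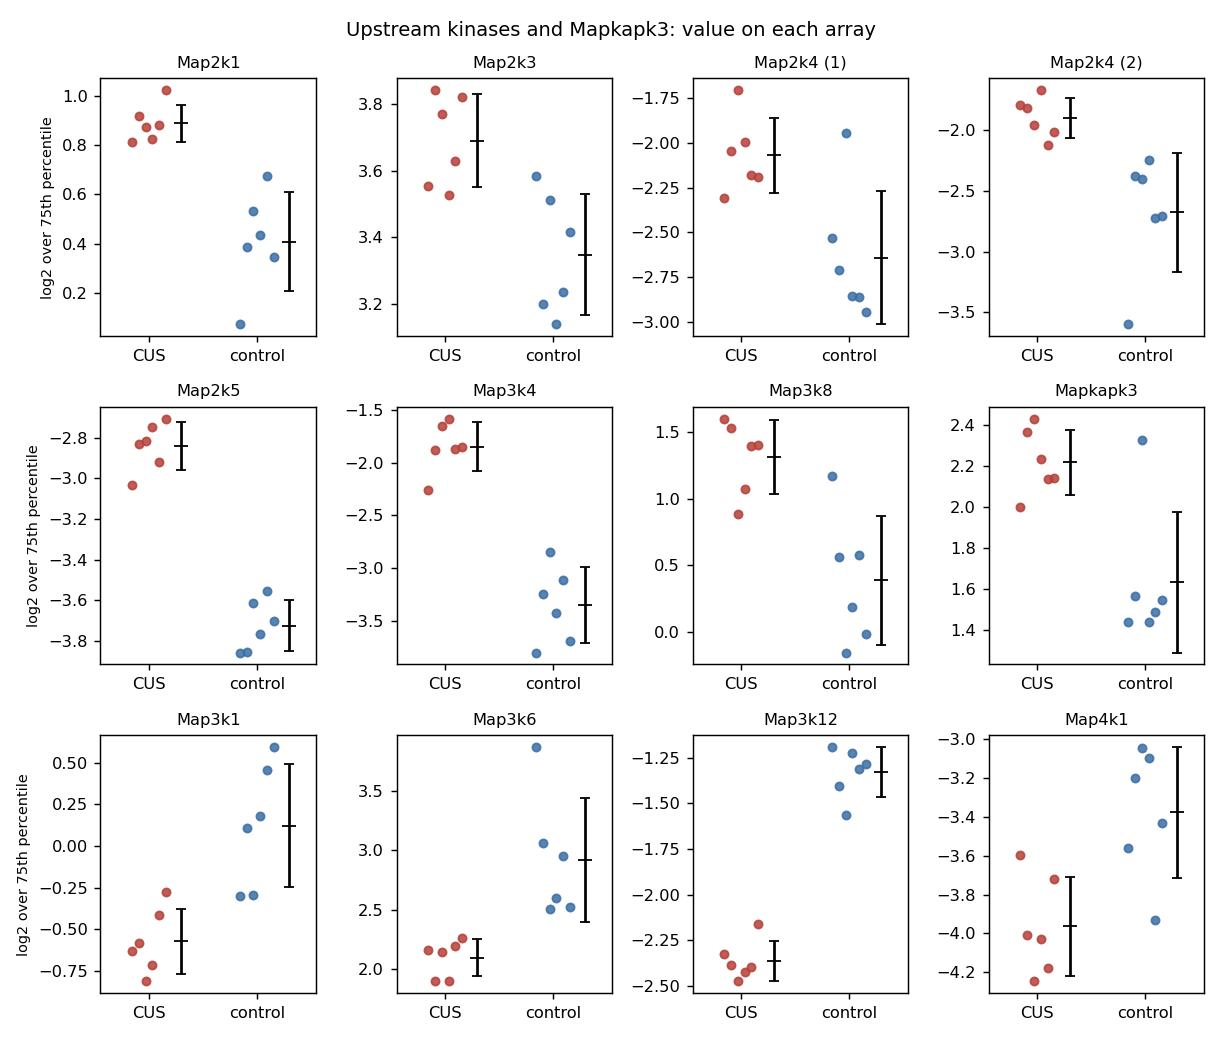
Value on each array of 11 upstream kinase probes and of Mapkapk3, in log2 units relative to the 75th percentile of the array; each point is 1 rat, and the black mark is the mean with its SD. The groups do not overlap for Map2k1, Map2k4 probe 2, Map2k5, Map3k4, Map3k6 and Map3k12, and after spike-in scaling the lower panels Map3k1, Map3k6 and Map4k1 are no longer below 0.

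The MAP4K kinases act upstream of the MAP3K tier, mainly toward JNK. Map4k1 (HPK1, known as a kinase of blood cells) lay between -4.25 and -3.59 on CUS arrays (median -4.02) and between -3.93 and -3.05 on control arrays (median -3.31). It fell by 0.59 ± 0.16 (adjusted p = 0.0108), and in the deposited table the difference was -0.29 (adjusted p = 0.121). Map4k4 (HGK) is known as a negative regulator of insulin-dependent glucose transport in cultured adipocytes, and 1 of its probes was lower. Map4k2, Map4k3 and Map4k5 differed by 0.10, 0.03 and -0.04 and did not pass.

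Among the scaffolds and partners, 3 probes were higher and 2 lower. Mapk8ip1 (JIP1, a scaffold of the JNK branch) was at 2.93 to 3.50 on CUS arrays and 2.59 to 3.08 on control arrays (0.36 ± 0.12, adjusted p = 0.0287). Map2k1ip1 (the MEK partner MP1) differed by 0.23 ± 0.09 (adjusted p = 0.0494). Leaving out 1 array ended the Mapk8ip1 call in 7 of 12 cases (adjusted p up to 0.065) and the Map2k1ip1 call in 8 of 12 (adjusted p up to 0.106). Mapkap1, which encodes SIN1, a subunit of the mTORC2 complex rather than of a MAP kinase cascade, was at -1.04 to -0.76 on CUS arrays and -1.44 to -1.09 on control arrays with no overlap (0.36 ± 0.08, adjusted p = 0.00402).

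The lower genes of this group were Mapk1ip1l and Mapk1ip1. Mapk1ip1l (chr15:23264169-23264228) was at -3.48 to -3.18 on CUS arrays and -2.92 to -2.42 on control arrays with no overlap (-0.67 ± 0.10, adjusted p = 2.12e-04). Mapk1ip1 was at 0.50 to 1.01 on CUS arrays and 1.04 to 1.69 on control arrays, likewise with no overlap (-0.41 ± 0.13, adjusted p = 0.0176). The TAK1 adaptors Map3k7ip2 and Map3k7ip1 differed by 0.16 and -0.06 and did not pass, nor did the JNK scaffold Mapk8ip3 (JIP3), at 0.16. Map3k7ip2 passed as higher after normexp (0.22, adjusted p = 0.0085) and with array weights (0.19, adjusted p = 0.0119). It did not pass in the deposited table (0.12, adjusted p = 0.192), after quantile normalization (0.12, adjusted p = 0.197) or with the replicate number as a block (0.16, adjusted p = 0.149). Spike-in scaling, which raised every difference by 0.83, put it at 0.99 (adjusted p = 8.5e-04). A dim further probe of Map3k7ip1 was well above background on 3 CUS arrays and no control array. Its CUS mean was at least 1.24-fold higher, but this was not tested and the groups overlapped (-6.40 to -4.89 on CUS arrays, -6.95 to -5.71 on control arrays). Mapk8ip2 gave no signal well above background.

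The substrate kinases of p38 were higher for each of the 3 genes by at least 1 probe. Mapkapk3 (MK3; chr8:112497638-112497697) lay between 2.00 and 2.43 on CUS arrays (median 2.19) and between 1.44 and 2.33 on control arrays (median 1.52). Its difference was 0.59 ± 0.15 (adjusted p = 0.00651), and 5 of 6 controls lay below every CUS value, with control rat 3 as the exception. Without that rat the difference was 0.73 (adjusted p = 4.2e-05). Mapkapk5 (MK5) was at -0.33 to 0.02 on CUS arrays and -0.72 to -0.27 on control arrays (0.39 ± 0.10, adjusted p = 0.00619). Mapkapk2 encodes MK2, which stabilizes cytokine transcripts downstream of p38. Its probe 2 was at -1.59 to -1.27 on CUS arrays and -1.97 to -1.51 on control arrays (0.37 ± 0.10, adjusted p = 0.00879), while its probe 1 differed by 0.08 ± 0.10 (adjusted p = 0.554). After normexp the call of probe 2 was lost (0.15, adjusted p = 0.138).

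For 4 genes with a pair of tested probes, the probes were compared within each array, which again is free of any constant per array, and this test was also added after the data were seen. The ratio of the Map2k4 pair did not pass (0.21 lower in CUS for probe 1 against probe 2, exact permutation p = 0.496). For Map3k3 (MEKK3, upstream of ERK5) the probes lie 2.01 kb apart. Probe 1 differed by 0.04 ± 0.22, whereas probe 2 (chr10:95550566-95550625) fell by 0.75 ± 0.17 (adjusted p = 0.00386). The log2 ratio of probe 1 to probe 2 was -4.27 to -4.07 on CUS arrays and -5.42 to -4.52 on control arrays, 0.79 higher in CUS with no overlap (exact permutation p = 0.0022, adjusted over 4 pairs 0.0043). For Map4k4 the probes lie 5.96 kb apart, and probe 1 differed by 0.20 ± 0.12 while probe 2 (chr9:39212335-39212394) fell by 0.52 ± 0.10 (adjusted p = 0.00149). Its ratio was -3.86 to -3.41 on CUS arrays and -4.47 to -4.25 on control arrays, 0.73 higher in CUS with no overlap (exact permutation p = 0.0022, adjusted 0.0043). For Mapkapk2, with probes 1.14 kb apart, the ratio of probe 1 to probe 2 was 0.30 lower in CUS (exact permutation p = 0.0043, adjusted 0.0058).

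After normexp the changes in ratio were 0.22 for Map3k3 (adjusted p = 0.534), 0.42 for Map4k4 (adjusted p = 0.0606) and -0.01 for Mapkapk2 (adjusted p = 0.892), while the deposited table gave 1.10, 0.91 and -0.47 (adjusted p = 0.0029 each). The unequal change of probes within a gene thus depended on the background correction and its offset, whose parts were not told apart.

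**Figure D4:**
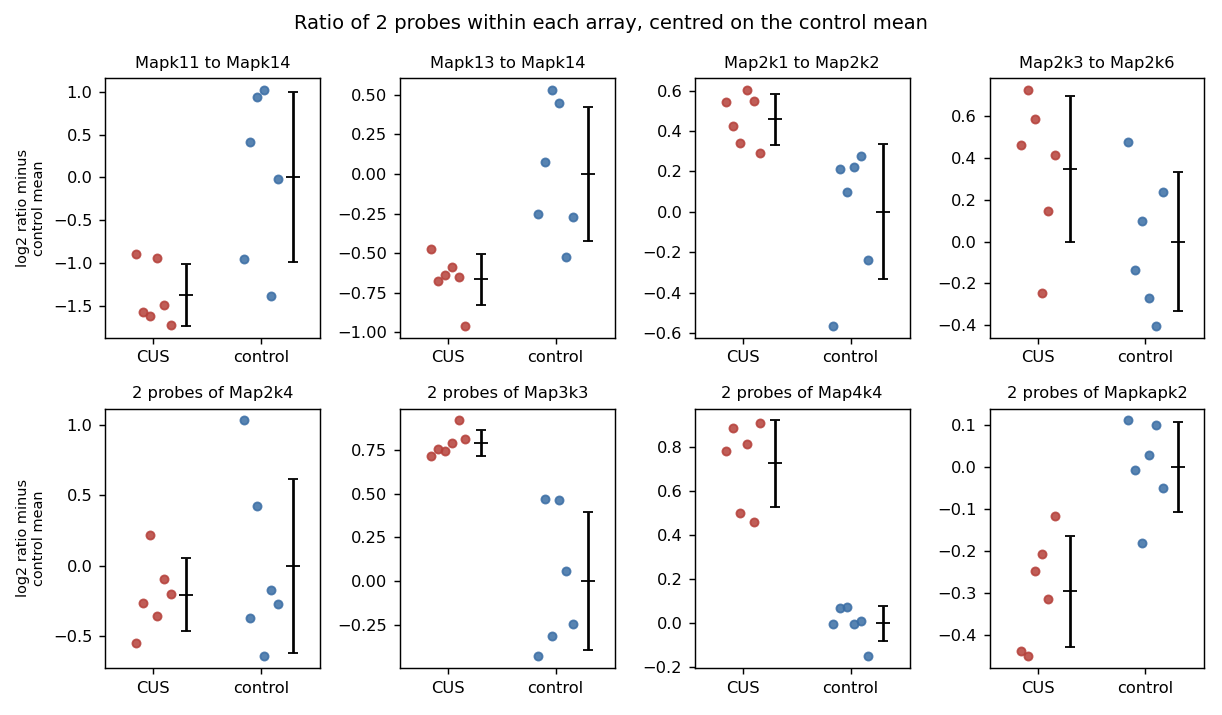
Log2 ratio of a pair of probes within each array, minus the mean of the control arrays, for 4 pairs of related kinases and 4 genes with 2 tested probes; each point is 1 rat, and the black mark is the mean with its SD. The groups do not overlap for Map2k1 to Map2k2 and for the probes of Map3k3 and Map4k4.

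Probe design moved with the differences as well. Probes whose 60 bases cover more than 60 bases of the genome cross an intron, and 9 such MAP kinase probes included 4 higher and 1 lower, with a median of 0.26. Over all tested probes of this kind, 705 of 1509 were higher and 206 lower, with a median of 0.27. The 36 contiguous MAP kinase probes held 10 higher and 10 lower, with a median of 0.04, against 3935 higher and 4454 lower of 17094 contiguous probes in all, with a median of -0.03. Map2k5, Map3k4, Mapkap1 and Mapkapk5 were the higher probes that cross a junction, and Map4k1 the lower one. The letters of the polyadenylation signal, AATAAA or ATTAAA, were searched on the transcript strand of the probe and found in 5 of the 45 probes, 11.1%, against 13.1% of all tested probes. Of these 5, the probes of Map3k8, Mapk8ip1, Mapkapk3 and Map2k1ip1 were higher and probe 1 of Map4k4 did not pass. Among all 2587 tested probes with these letters the split went the other way, with 413 higher, 639 lower and a median of -0.05. The part of probe design in the results was not tested.

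Several MAP kinase probes carry other names in the array files and stood outside the rule. A probe annotated to Mapk12 under a transcript identifier was lower in CUS, at -3.52 to -2.88 on CUS arrays and -2.87 to -2.28 on control arrays with no overlap (-0.59 ± 0.14, adjusted p = 0.0045), unlike the Mapk12 probe above. The probe annotated to Mapk8 (JNK1) gave no signal well above background, so that of the JNK kinases only Mapk9 gave a value. Map3k20 (ZAK) was lower (-0.56 ± 0.14, adjusted p = 0.0063), and Map3k7cl was higher (0.94 ± 0.20, adjusted p = 0.0021). Both probes of Map3k5 (ASK1) missed the threshold, at 0.21 (adjusted p = 0.341) and 0.52 (adjusted p = 0.196).

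Genes that act around the cascades, taken from 4 lists of 77 genes, were examined for comparison. Of these, 3 are themselves among the 48 genes above and 64 others were tested, each by its brightest probe. In CUS 10 of the 64 were higher and 14 lower, against 24.2% and 25.8% of all 17393 genes tested, and 40 did not pass. Among the 40, another probe did pass as higher for Grb2 (0.69) and as lower for Shc1 (-0.55), Atf2 (-0.83) and Iqgap1 (-0.46). Of 15 Ras genes and receptor adaptors, Gab1, a docking protein, was higher (0.33) and Sos2, a Ras exchange factor, lower (-0.37), although another Sos2 probe was higher by 2.37. Of 14 Raf kinases, scaffolds and inhibitors, Araf (0.31) and the ERK-binding protein Pea15 (0.42) were higher, and the scaffolds Ksr1 (-0.69) and Cnksr1 (-0.70) lower.

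Of 17 adaptors and upstream kinases of the JNK and p38 branches, 3 were higher and 3 lower. Gadd45g, an activator of MEKK4, was higher by 0.64 ± 0.16, the TNF receptor adaptor Traf2 by 0.54 ± 0.12 and the small GTPase Rac1 by 0.31 ± 0.10. The kinases Taok3 (-1.09 ± 0.18), Pak1 (-0.86 ± 0.16) and Taok2 (-0.74 ± 0.15) were lower. Of 18 substrate kinases and transcription factors 8 were lower and 4 higher, with a median of -0.28. The lowest were Mef2c (-0.97 ± 0.34), Rps6ka2 (-0.93 ± 0.18), an ERK substrate kinase, and Elk3 (-0.78 ± 0.21), and the highest were the ERK target factor Elk1 (0.90 ± 0.16, well above background on 7 of 12 arrays) and the substrate kinases Rps6ka4 (0.68 ± 0.13) and Rps6ka5 (0.46 ± 0.16). With normexp 10 of the genes of these lists were higher and 27 lower, and after spike-in scaling 40 were higher and 0 lower.

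Markers of other cells moved between the groups alongside these results. All 4 tested red blood cell markers (Hbb, Alas2, Ahsp, Slc4a1) were higher in CUS, with a summed level of 506 to 664 times the 75th percentile on CUS arrays and 17.8 to 54.7 times on control arrays. Of 8 mast cell markers 7 were higher, with a summed level of 1.62 to 4.56 on CUS arrays and 0.195 to 0.358 on control arrays. Of these, Mcpt1, Cpa3, Fcer1a and Ms4a2 were well above background on only 6 or 7 of the 12 arrays, so that the low level rests in part on signals not above background. Smooth muscle markers were lower for 5 of 6 genes (4.58 to 12.2 on CUS arrays, 4.90 to 44.6 on control arrays), and endothelial markers for 4 of 7 (18.3 to 36.5 on CUS arrays, 17.8 to 77.1 on control arrays). Macrophage markers were higher for 2 of 7 (C1qa and Csf1r, of which another Csf1r probe was lower by 1.25), mesothelial markers for 3 of 4, and T and NK cell markers for 1 of 5. Of 6 preadipocyte and fibroblast markers 1 was lower, and of 7 adipocyte markers 3 (Cidec, Lep, Pparg) were higher and 1 (Plin1) lower. The adipocyte marker Lipe did not pass by its brightest probe, while its other probe was lower by 1.07 (limma, adjusted p = 3.4e-04). All markers of these lists that have a probe were well above background on enough arrays to be tested, except Cd3e and Cd2, whereas the T cell markers Cd3d and Cd3g were well above background on 12 and 11 arrays and did not pass. In bulk RNA, fewer cells of a type and less RNA per cell cannot be told apart, and the part of these cells in the MAP kinase results was not tested.

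Scaling set the sign of most lower calls. In the deposited quantile normalized table, higher probes numbered 15 and lower ones 10, close to the split after 75th percentile scaling. However, after spike-in scaling the 11 lower probes all lost their call as lower and 9 of them lay above 0. Mapk3 even passed as higher after that scaling (0.56, adjusted p = 0.0253). The higher calls of Map2k1, Map3k4, Map3k8, Mapkapk3, Mapkapk5, Mapkap1, Mapk8ip1, Map2k1ip1, Map2k3 and probe 2 of Map2k4 were found after 75th percentile scaling, after normexp and after spike-in scaling. Because spike-in scaling raised every difference by 0.83, passing after it says nothing further about a higher call. Of these, Map2k3 missed the threshold in the deposited table (limma, adjusted p = 0.0523). Leaving out single arrays ended the calls of Map2k1ip1 and Mapk8ip1 (limma, adjusted p up to 0.106 and 0.065).

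**Figure D5:**
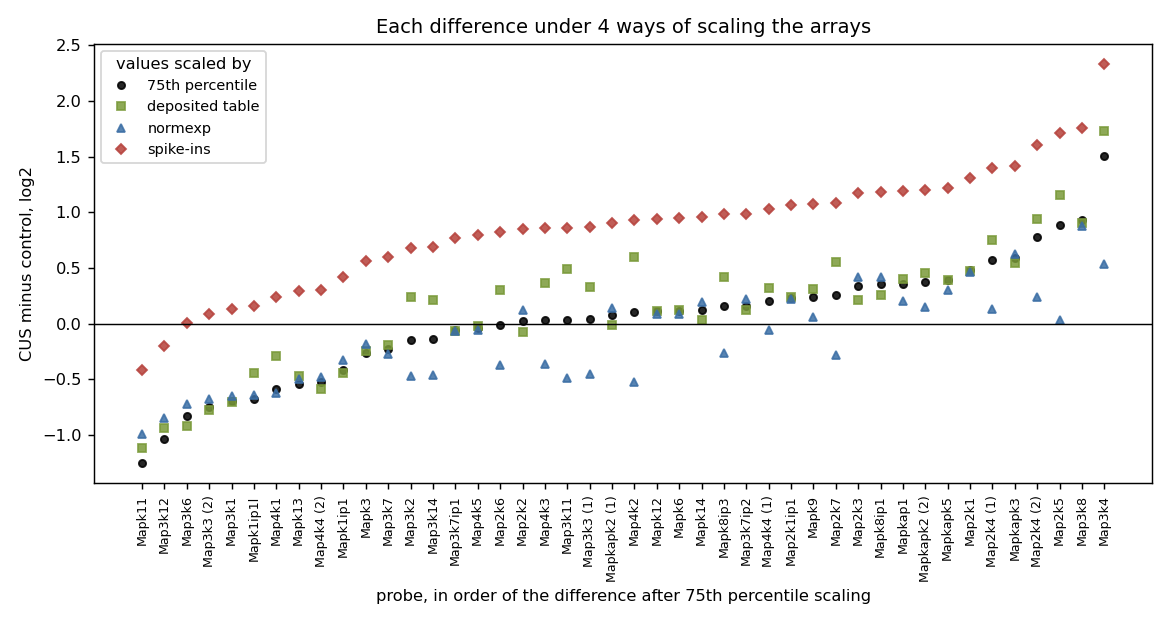
Difference between CUS and control of 44 tested probes (vertical axis, log2) under 4 ways of scaling the arrays, with probes in order of the difference after 75th percentile scaling. Spike-in scaling places 42 of the 44 probes above 0 and normexp 20 of them.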

How the data were processed

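Epididymal adipocyte RNA of 6 CUS and 6 control rats was hybridised to 1-color Agilent arrays, 1 per rat, and groups follow the sample labels. The authors deposited scanner output with spot intensities, which per the file headers Agilent Feature Extraction 10.7.3.1 had background-subtracted and not normalized between arrays, and a table of quantile normalized intensities, used here as an alternative. The methods name an exon array, whereas the scanner files belong to a gene expression design. From the processed intensity, spots of a probe were averaged, log2 taken and the 75th percentile of the array subtracted. The 19727 probes that the software called well above background on 6 arrays or more were fitted with limma 3.58.1 (R 4.3.3, lmFit and eBayes) and adjusted by Benjamini-Hochberg; the script was tested on simulated data. Probes were matched to current symbols through RefSeq by accession (46 member probes), symbol (8) or synonym (1). Named were the MAP kinases (1 is counted with the members but not reported here), up to 4 higher and 4 lower genes of each other tier, genes with several probes and genes with none tested; other members are given by value. The members, lists and tests were chosen with earlier results of these data known. Within-array ratios used exact permutation tests (SciPy 1.17.1). Alternatives were other scalings, normexp (offset 50), filters, variance models, the replicate number as a block, leaving out each array, and the t-test of the methods. Bounds for probes below background compare the brighter group's mean with the lowest signal well above background on each array of the other group, or with the probe's own signal there where that is higher. Whether rats were independent beyond their labels is not stated, so p-values measure the spread between these samples. Array correlations were 0.947 to 0.995, and 60.4 to 67.3% of probes were well above background.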

Additional observations from a re-analysis of the deposited data

Results flagged for a closer look

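Of 90 sets of 6 arrays (45 probes in both groups), 8 held an array whose gap to its nearest neighbor exceeded the 95% limit of Dixon's test, which is 8.89%, where chance alone flags about 1 in 20. Control rat 1 was the array in 3 of these. It stood high for Mapk9 (-1.02, against -1.81 to -1.52 in the other controls) and for probe 1 of Mapkapk2 (3.03, against 2.49 to 2.69), and low for probe 2 of Map2k4 (-3.60, against -2.72 to -2.24). Control rat 3, the dimmest array, stood low for probe 1 of Map3k3 (-5.11, against -4.10 to -3.62) and high for Mapkapk3 (2.33, against 1.44 to 1.56). CUS rat 1 stood low for Mapk1ip1 (0.50, against 0.82 to 1.01 in the other CUS rats) and for Mapk8ip3 (-3.64, against -3.10 to -2.93). CUS rat 6 stood high for probe 1 of Mapkapk2 (3.01, against 2.63 to 2.73). Without control rat 1 Mapk9 passed as higher, and no other call for these probes changed when the array named was left out.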

How the results depend on the processing

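The split into higher and lower probes rested on the scaling and on the background correction with its offset. Without scaling, 36 MAP kinase probes were higher and 0 lower, and 43 other pathway genes were higher and 0 lower. After spike-in scaling these counts were 35 and 0, and 40 and 0 (limma, no lower member at an unadjusted p under 0.05 in either case). After normexp the lower MAP kinase probes were 20 and the lower pathway genes 27. All tested probes moved likewise, with 12645 higher and 477 lower after spike-in scaling and 4438 higher and 8870 lower after normexp. At an adjusted p under 0.01, 6 MAP kinase probes were lower, and 5 pathway genes higher and 7 lower. Differences that changed sign without scaling and were called in either fit (log2, CUS minus control) were Mapk13 0.24, Mapk3 0.51, Map2k6 0.77, Map3k1 0.082, Map3k14 0.64, Map3k2 0.63, Map3k3 probe 2 0.032, Map3k7 0.55, Map4k1 0.19, Map4k4 probe 2 0.25, Map4k5 0.74, Map3k7ip1 0.72, Mapk1ip1 0.36 and Mapk1ip1l 0.10. After spike-in scaling they were Mapk13 0.29, Mapk3 0.56, Map2k6 0.82, Map3k1 0.13, Map3k14 0.69, Map3k2 0.68, Map3k3 probe 2 0.084, Map3k6 0.0045, Map3k7 0.60, Map4k1 0.24, Map4k4 probe 2 0.31, Map4k5 0.79, Map3k7ip1 0.77, Mapk1ip1 0.42 and Mapk1ip1l 0.16. After normexp they were Map2k7 -0.28, Map3k11 -0.49, Map3k3 probe 1 -0.45, Map4k2 -0.52, Map4k3 -0.36 and Mapk8ip3 -0.26. Without scaling every probe shifted by 0.78 and after spike-in scaling by 0.83, which by construction gives the sign changes of these settings, and which scaling is right was not tested. After normexp the median of all tested probes shifted by -0.16, less than the change of each of the 6 probes named there. The offset of 50 units moves dim probes toward lower in CUS by construction, since the control arrays were dimmer. How much of these changes the offset makes was not tested. In the deposited table the ratio of Map2k3 to Map2k6 was -0.093 and that of Mapk12 to Mapk14 was 0.087, and neither ratio passed in either source. Leaving out 1 array moved the ratio of Mapk12 to Mapk14 between -0.067 and 0.039 and that of the Map2k4 probes between -0.33 and 6.3e-05. Quantile normalization, the deposited table, both filters on dim probes, the variance trend, array weights and the methods' t-test kept each count of MAP kinase probes within 1.5 times. At the methods' own threshold of 2-fold and unadjusted p, that t-test gave 1 higher and 2 lower of 45 MAP kinase probes, against 669 higher and 1671 lower of all 19727. After Benjamini-Hochberg adjustment of the same t-test Mapk11, Mapk13 and Mapk3 missed the threshold (adjusted p = 0.0512, 0.0529 and 0.0519). Leaving out 1 array gave 12 to 14 higher and 10 to 11 lower MAP kinase probes, and 7 to 12 higher and 11 to 19 lower pathway genes, and changed the sign of no called probe. With the replicate number as a block, 13 MAP kinase probes were higher and 10 lower, with Map2k1ip1 (adjusted p = 0.0871) and Mapk1ip1 (adjusted p = 0.0526) no longer called. Arrays with the same number did not pair, with correlations of their deviations between -0.19 and 0.43, and 2 of 6 matched best with their own number. The number of rats limits the precision, and probes not above background have no difference here.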
